A study of Rattus norvegicus with 2 samples.

Results

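The CCAAT/enhancer-binding proteins (C/EBP) are a small family of basic leucine zipper transcription factors, and 4 of its genes, Cebpa, Cebpb, Cebpd and Cebpg, are described here in isolated cardiac cells of neonatal rats with and without lipopolysaccharide (LPS), the endotoxin of Gram-negative bacteria. They were chosen by symbol from the 25399 genes listed in the files, where their identifiers are ENSRNOG00000010918, ENSRNOG00000057347, ENSRNOG00000050869 and ENSRNOG00000021144. Hearts of Sprague-Dawley rats aged 1 to 3 days, males and females pooled, were digested with trypsin, and a Percoll gradient was used to enrich intrinsic cardiac adrenergic (ICA) cells, the catecholamine-making cells of the heart. The cells were then plated and cultured. Both groups came from these cells and by design differed in the agent. It was saline in the control library and 1 µg/ml LPS in the LPS library, each given for 2 h. After treatment the cells were detached with trypsin. Effects of the agent and of the library cannot be told apart. Each condition was 1 droplet library, so no difference below has a replicate check, no test was made, and every interval is a 95% interval for counting error only. In control, 152624585 unique molecular identifiers (UMIs, the count of captured transcripts) came from 11531 cells, and in LPS 127580475 UMIs came from 12689 cells, so the median cell had 12479 UMIs in control and 9432 in LPS. The libraries had 194 cell barcodes in common (1.68% of control barcodes, 1.53% of LPS barcodes), and leaving these out kept every C/EBP ratio followed here within its interval.

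C/EBP factors bind DNA as dimers with one another and with related zipper proteins. C/EBPβ and C/EBPδ are best known as inducible factors that act with NF-κB on genes of inflammation and the acute-phase response, whereas C/EBPα is known for stopping cell division and for the maturation of granulocytes, macrophages, fat and liver cells. C/EBPγ lacks a strong activation domain and works mainly as a dimer partner.

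Cebpb was the most abundant of the 4 transcripts in every cluster of both libraries and was higher in LPS in all of them. The other statements here cover the 10 clusters with at least 50 cells in each library. Cebpa had its highest level in control macrophages and was 8.36-fold lower in the macrophages of the LPS library. Cebpd was highest in the fibroblasts of cluster 7, with ratios from 1.11 in the main fibroblasts to 2.10 in macrophages. Cebpg was highest in macrophages, which were also the cells where its ratio was nearest to 1.

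The region before the start of each gene is shown because Cebpa and Cebpb stood on opposite sides of 1 in the macrophages. RefSeq sequences of the rat build GRCr8 matched 3 of the 4 genes; Cebpd was not matched. Each sequence is the 250 bases before the annotated start, 5′ to 3′ on the gene's strand, which is the plus strand for Cebpa and Cebpb and the minus strand for Cebpg. Capitals mark TATAAA on the gene's strand, and TGACG (the core of a cAMP response element) and CCAAT on either strand.
Cebpa, chr1:96896334-96896583: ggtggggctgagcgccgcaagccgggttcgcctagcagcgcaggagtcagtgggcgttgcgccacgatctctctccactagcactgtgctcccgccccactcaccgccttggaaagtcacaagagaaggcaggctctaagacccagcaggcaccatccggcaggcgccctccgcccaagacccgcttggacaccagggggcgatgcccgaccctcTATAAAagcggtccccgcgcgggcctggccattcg
Cebpb, chr3:176816755-176817004: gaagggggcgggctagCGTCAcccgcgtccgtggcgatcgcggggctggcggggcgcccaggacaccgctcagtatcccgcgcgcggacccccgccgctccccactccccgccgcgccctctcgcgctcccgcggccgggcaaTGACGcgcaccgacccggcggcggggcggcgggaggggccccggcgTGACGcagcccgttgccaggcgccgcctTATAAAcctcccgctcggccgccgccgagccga
Cebpg, chr1:96829737-96829986: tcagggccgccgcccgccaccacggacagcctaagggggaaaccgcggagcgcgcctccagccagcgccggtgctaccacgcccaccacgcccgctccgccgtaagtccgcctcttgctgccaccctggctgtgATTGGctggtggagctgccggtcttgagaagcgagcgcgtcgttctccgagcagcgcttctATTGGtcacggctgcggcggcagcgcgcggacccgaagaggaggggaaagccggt

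TATAAA, the TATA box core, stood 35 to 30 bases before the start of Cebpa and 33 to 28 bases before the start of Cebpb, and these letters were present in 8.05% of 33465 promoter windows of the same length. TGACG was found 3 times before Cebpb, against 18.2% of all windows with at least 1 match on either strand, and it was not found in the windows of Cebpa and Cebpg. The Cebpg window instead held CCAAT 2 times, both on the opposite strand, a motif present in 34.0% of windows. The 8-letter element TGACGTCA, the C/EBP-type motif TTGCNNAA and the STAT-type motif TTCNNNGAA, searched on both strands, had no match in the 3 windows and were present in 1.59%, 9.22% and 7.67% of all windows. The Sp1-type motif GGGCGG, on either strand, had 2 matches before Cebpa, 2 before Cebpb and 1 before Cebpg, and was present in 30.5% of all windows. Guanine and cytosine made up 67.2%, 80% and 70.4% of the Cebpa, Cebpb and Cebpg windows, against a median of 51.2%. A match of letters is a description of the sequence and not evidence of binding.

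The cell table of the authors divides the cells into 11 clusters, of which 10 had at least 50 cells in each library. Clusters 0, 1 and 7 carry the label of fibroblasts, cluster 3 that of ICA cells and cardiomyocytes, clusters 4 and 5 that of endothelial cells, and cluster 6 that of macrophages. Clusters 2, 8 and 9 carry no cell type. Cluster 2 had all 6 mural cell markers at a summed 1221 and 975 UMIs per 1000000 in control and LPS, and is called mural-like. The next highest sums were 453 and 386, in cluster 9. Pdgfrb gave 504 and 365 of the cluster 2 sums and was also at 194 and 126 in cluster 0. Cspg4, at 18.4 and 17.0 in cluster 2, was higher in clusters 3 and 9, and Notch3 was at 5.77 and 1.90. Cluster 8 had 504 and 529 UMIs per 1000000 of mesothelial markers and is called mesothelial-like. Of these 5 markers 4 had UMIs in control and 3 in LPS, Msln alone gave 431 and 466 of the summed UMIs per 1000000, Krt19 was at 0 in both libraries and Lrrn4 at 0 in LPS. Cluster 9, with 66 and 58 cells, was high in both fibroblast and cardiomyocyte markers and is left unnamed. Endothelial markers summed to 1144 to 1805 UMIs per 1000000 in clusters 4 and 5 and cardiomyocyte markers to 6660 and 7091 in cluster 3. All 10 macrophage markers had UMIs in control cluster 6, where they summed to 4997 per 1000000 against 22.8 to 55.8 in the other clusters, and 9 of 10 had UMIs in LPS, where they summed to 3323 against 8.93 to 32.5 and Cd163 was at 0. Ranks and highest or lowest levels below are among the 10 clusters. Levels are UMIs of a gene per 1000000 UMIs of the cluster and library (CPM). A ratio was read only where both libraries together gave at least 50 UMIs, and a gene was counted as higher or lower when its ratio reached 2 or 0.5.

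**Figure D1:**
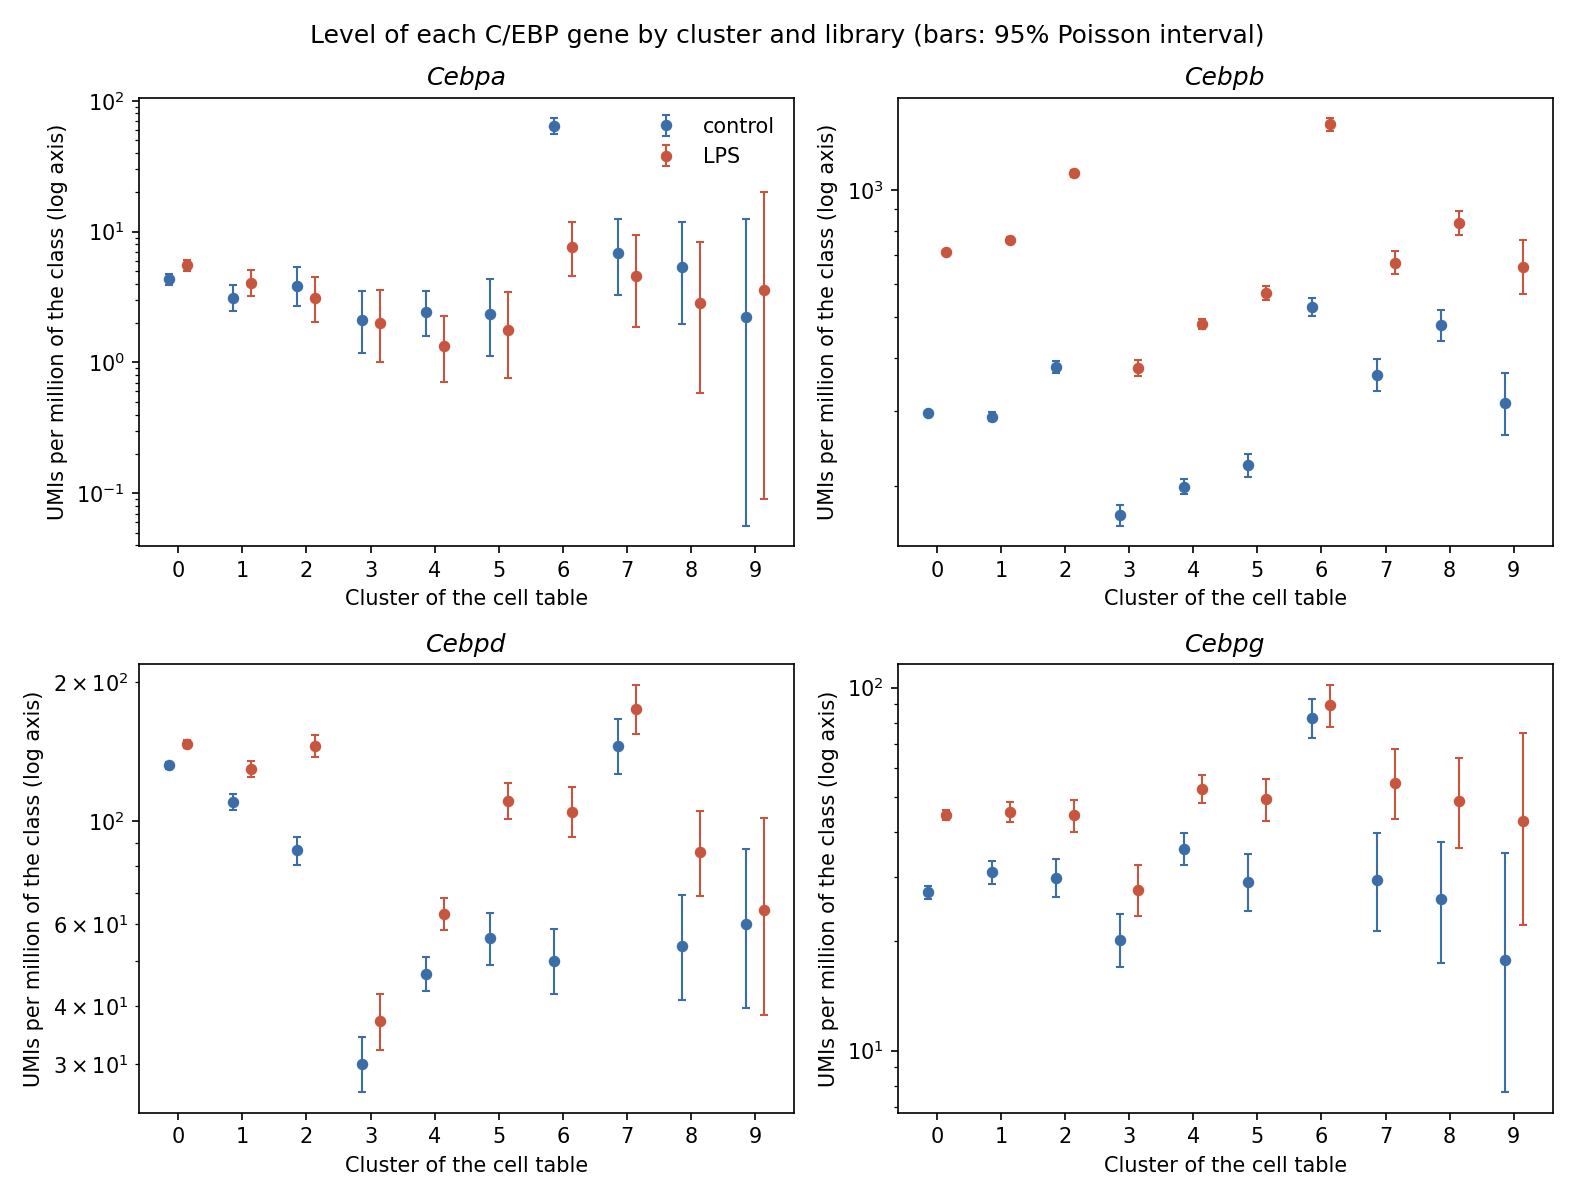
Level of each C/EBP gene (vertical log axis, UMIs per 1000000 of the class) in clusters 0 to 9 of the control (blue) and LPS (red) library, with 95% Poisson intervals for counting error. The red Cebpb points lie above the blue ones in all 10 clusters, and the control Cebpa point of cluster 6, 63.9 CPM, stands far above every other Cebpa point.

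Cebpb, the inducible activator of the family, had 44683 UMIs in control and 92380 in LPS. In the main fibroblasts of cluster 0 its level was 297 CPM in control and 715 CPM in LPS, a ratio of 2.41 (2.37 to 2.44). In macrophages it was 528 CPM in control and 1429 CPM in LPS, a ratio of 2.70 (2.55 to 2.87), and these were the highest levels of Cebpb in either library. The mural-like cluster 2 had the largest ratio, 2.88 (2.77 to 2.99), from 381 to 1095 CPM. Levels were lowest in the ICA and cardiomyocyte cluster 3, with 170 CPM in control and 379 CPM in LPS, yet the ratio was still 2.23 (2.07 to 2.39). The endothelial cluster 4 had 199 and 482 CPM and endothelial cluster 5 had 223 and 572 CPM, ratios of 2.43 and 2.56. Cebpb thus differed in the same direction in cells of every label, and the intervals of all 10 ratios lay above 1.

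The ratio of Cebpb reached 2 in 8 of 10 clusters. Counted as UMIs per cell, with no scaling for the shallower LPS cells, it was above 1 in all 10 but reached 2 in 3, clusters 2, 5 and 6, with a range of 1.38 to 2.17. On the CPM scale the exceptions were the fibroblasts of cluster 7, at 1.84 (1.66 to 2.05), and the mesothelial-like cluster 8, at 1.75 (1.57 to 1.95), with control levels of 366 and 479 CPM. Among all genes with at least 50 UMIs, the share at least 2-fold higher in LPS was 3.44% in cluster 0, 3.23% in cluster 1, 2.86% in cluster 2, 1.70% in cluster 3, 2.65% in cluster 4, 4.24% in cluster 5, 4.82% in cluster 6, 4.70% in cluster 7, 2.48% in cluster 8 and 2.69% in cluster 9. The share at least 2-fold lower was 9.10%, 5.09%, 4.28%, 1.69%, 4.08%, 4.56%, 12.3%, 3.45%, 1.67% and 2.81% in the same order of clusters, and the only member counted as lower in any of them was Cebpa in cluster 6. Among the genes with enough UMIs, Cebpb alone was counted as higher in clusters 0 to 5 and 9, and none was in clusters 7 and 8. Cebpd joined Cebpb in cluster 6, a call that was lost under 2 alternatives given with its values below. All 4 genes had enough UMIs for a ratio in clusters 0, 1, 2 and 6. Cebpa had too few in clusters 3, 4, 5, 7 and 8, and in cluster 9 only Cebpb had enough. In the order of Cebpb levels, macrophages were first and clusters 5, 4 and 3 last in both libraries, while the other 6 clusters changed rank. In control, macrophages and the mesothelial-like cluster had overlapping intervals, and so did each pair of neighbours in the run of clusters 2, 7, 9, 0 and 1.

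**Figure D2:**
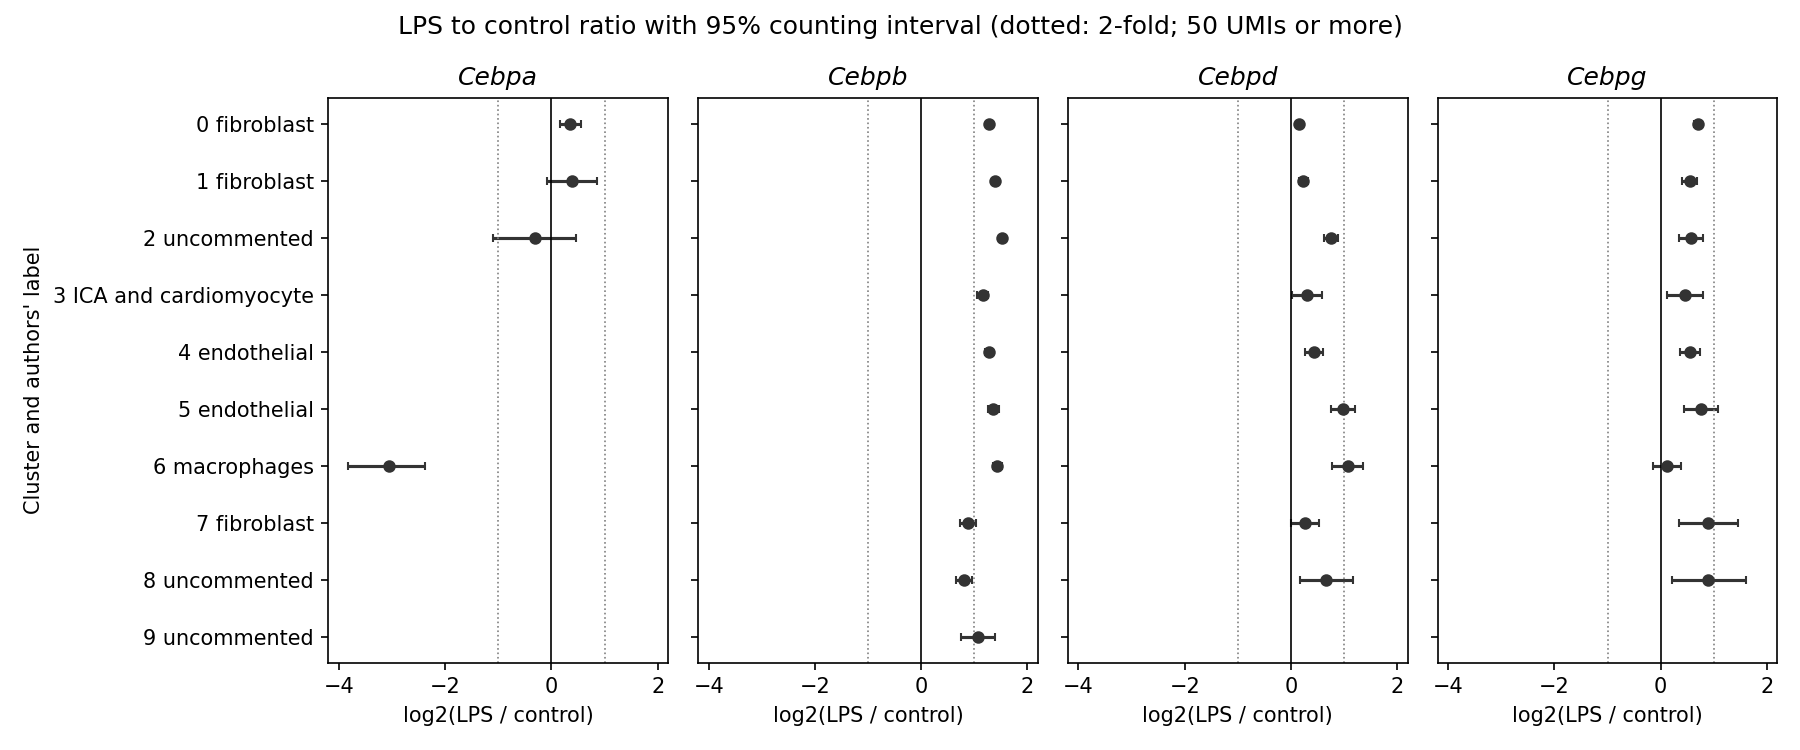
LPS to control ratio of each C/EBP gene on a log2 axis, by cluster, with 95% counting intervals and dotted lines at 2-fold. Clusters with fewer than 50 UMIs of the gene are not drawn. Cebpb lies to the right of 0 in all 10 clusters, while Cebpa lies at 0.120 on the linear scale in macrophages, the single point past the left dotted line.

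The same difference was visible cell by cell. The LPS cells were shallower, so each cell was first thinned to 3000 UMIs, which left out 79 LPS cells in all. After thinning, a Cebpb UMI was found in 55.2% (54.0% to 56.4%) of control and 84.8% (83.9% to 85.6%) of LPS main fibroblasts, and in 75.4% (70.0% to 80.4%) of control and 97.2% (94.6% to 98.8%) of LPS macrophages. Of the thinned macrophages, 68 of 281 in control had 3 or more Cebpb UMIs and 223 of 290 in LPS, and the number with none went from 69 to 8. The lowest shares were in cluster 3, with 38.5% (35.2% to 41.9%) in control and 61.7% (58.4% to 64.8%) in LPS. Without thinning, at medians of 12968 and 9822 UMIs per cell, 92.2% of control and 99.1% of LPS main fibroblasts had a Cebpb UMI, a smaller difference than after thinning. No cluster is sure to lack Cebpb, and the part that free RNA plays in these shares was not tested.

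**Figure D3:**
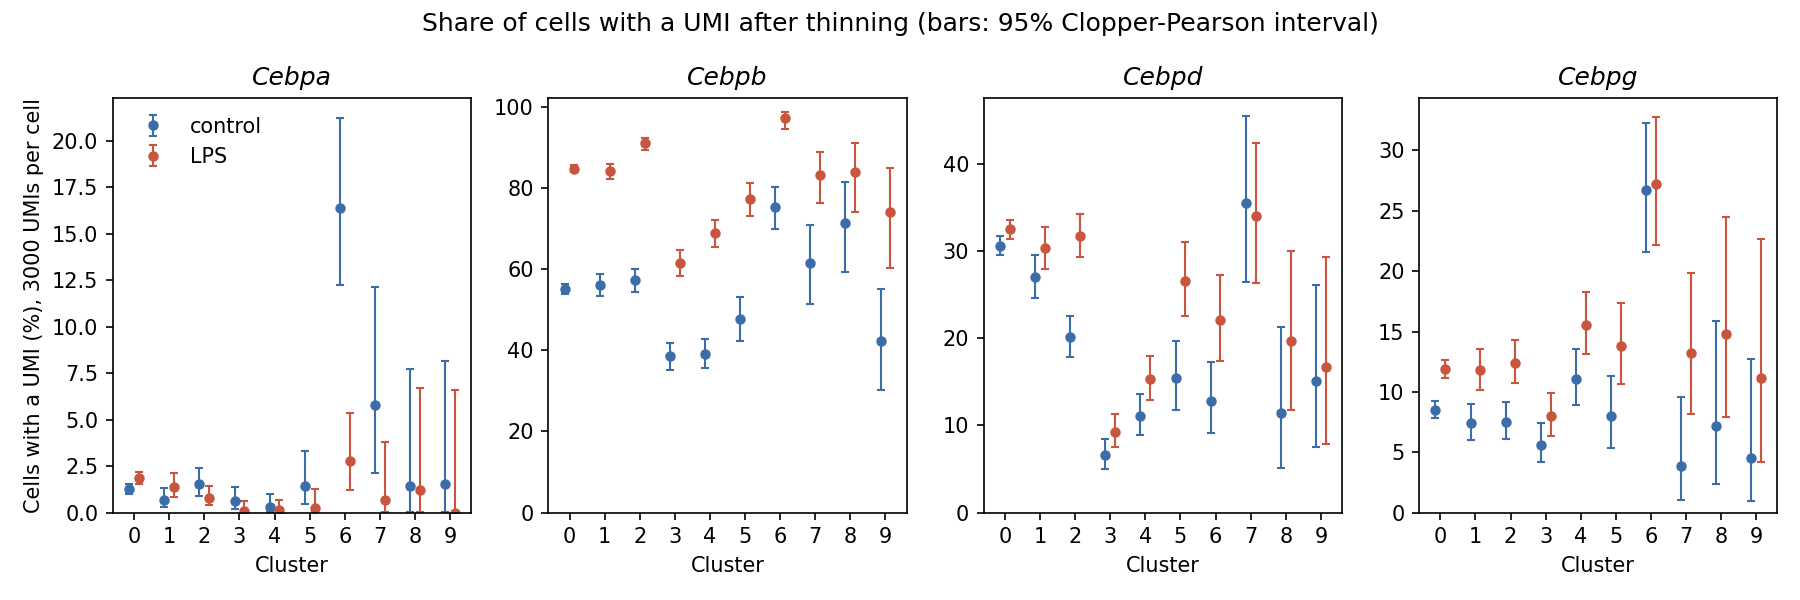
Share of cells with a UMI of each gene in clusters 0 to 9, after each cell was thinned to 3000 UMIs, in control (blue) and LPS (red), with 95% Clopper-Pearson intervals. The Cebpb shares are higher in LPS in all 10 clusters, and the Cebpa share of macrophages is 16.4% in control and 2.76% in LPS.

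Cebpa, the myeloid and adipocyte factor, was scarce outside macrophages. Macrophages of the control library had 199 Cebpa UMIs, or 63.9 CPM (55.3 to 73.4), and the next cluster, the fibroblasts of cluster 7, had 6.85 CPM (3.28 to 12.6). Macrophages made up 2.44% of the control cells but held 25.8% of the Cebpa UMIs. In LPS they had 19 Cebpa UMIs, or 7.64 CPM (4.60 to 11.9), and held 3.29% of the Cebpa UMIs of that library. The ratio was 0.120 (0.0705 to 0.192), and macrophages of the LPS library no longer stood apart from fibroblast cluster 0, whose interval overlapped theirs. Across all genes with at least 50 UMIs in macrophages, 12.3% were at least 2-fold lower in LPS, and the median log2 ratio of those genes was -0.31, so the Cebpa value of -3.06 lay well below the general shift.

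Cell by cell, a Cebpa UMI was present in 16.4% (12.2% to 21.2%) of thinned control macrophages and in 2.76% (1.20% to 5.36%) of thinned LPS macrophages, against 41.6% and 5.50% without thinning at medians of 8846 and 6900 UMIs per cell. For comparison, the thinned share in endothelial cluster 4, which had the lowest Cebpa level in LPS, was 0.277% in control and 0.126% in LPS. Most macrophage markers were also lower in LPS, where the median ratio over all genes with at least 50 UMIs in the cluster was 0.808. Of the 9 with UMIs in both libraries, 7 had a ratio below 1, 5 of them with an interval wholly below 1, which were Csf1r at 0.136 (0.107 to 0.171), Tyrobp at 0.598 (0.578 to 0.618), Mrc1 at 0.678 (0.550 to 0.832), C1qa at 0.695 (0.595 to 0.812) and C1qc at 0.753 (0.653 to 0.868). Csf1r alone was at 0.5 or less, and the intervals of Mrc1, C1qa and C1qc held the median of all genes. The 2 markers above 1 were Cd68 and Adgre1, the gene of F4/80. Cd68 was at 496 and 531 CPM, a ratio of 1.07 (0.994 to 1.15), and Adgre1 had a ratio of 1.50 (1.31 to 1.73). The part of these marker differences in the Cebpa ratio was not tested. Among only those macrophages with a Cd68 UMI, 271 in control and 264 in LPS, the Cebpa ratio was 0.113.

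In the main fibroblasts Cebpa was low in both libraries, at 4.31 CPM (3.89 to 4.76) in control and 5.52 CPM (4.99 to 6.08) in LPS, a ratio of 1.28 (1.11 to 1.48). Counted per cell instead of per 1000000 UMIs, this ratio was 0.980, so its direction depends on the scaling. The fibroblasts of cluster 1 and the mural-like cells gave 1.30 (0.942 to 1.81) and 0.805 (0.467 to 1.37), intervals that hold 1. The other 6 clusters had between 1 and 27 Cebpa UMIs in a library, too few for a ratio.

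Cebpd, the other acute-phase member, had its highest level in the fibroblasts of cluster 7 in both libraries. Its control level was 145 CPM for cluster 7, 132 CPM for cluster 0 and 110 CPM for cluster 1, where the intervals of clusters 7 and 0 overlapped. Levels were 86.6 CPM in the mural-like cells, 46.9 and 56.0 CPM in the endothelial clusters, 50.1 CPM in macrophages and 29.9 CPM in cluster 3. The main fibroblasts alone held 71.0% of the Cebpd UMIs of the control library and 65.0% of those of the LPS library. With LPS, Cebpd was 147 CPM in cluster 0, a ratio of 1.11 (1.08 to 1.14), and 130 CPM in cluster 1, a ratio of 1.18 (1.12 to 1.24). Counted as UMIs per cell these ratios were 0.851 and 0.891, and those of clusters 3 and 7 were 0.862 and 0.906, so the direction in these 4 of the 9 clusters with enough UMIs depends on the scaling. The largest ratios were those of macrophages, which reached 105 CPM, a ratio of 2.10 (1.71 to 2.57), and endothelial cluster 5, which reached 111 CPM, a ratio of 1.98 (1.69 to 2.32). Endothelial cluster 4 was at 46.9 CPM in control, with an interval that overlapped the control intervals of both. It reached 63.2 CPM, a ratio of 1.35 (1.20 to 1.52). The macrophage ratio fell short of 2 in UMIs per cell, at 1.62, and without the 8% of cells with the most UMIs, at 1.81. The mural-like cells reached 145.5 CPM, a ratio of 1.68 (1.54 to 1.84), which put them beside the main fibroblasts. Cluster 3 stayed lowest, at 37.0 CPM, with a ratio of 1.24 (1.01 to 1.51). The counting intervals of macrophages and cluster 0 did not overlap, and no test of that difference was possible with 1 library per condition.

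The thinned share of cells with a Cebpd UMI was 30.7% (29.5% to 31.8%) in control and 32.5% (31.4% to 33.6%) in LPS main fibroblasts, and 12.8% (9.14% to 17.3%) and 22.1% (17.4% to 27.3%) in macrophages. Without thinning the share in main fibroblasts was lower in LPS, 64.7% against 71.2%, the reverse of the thinned order. In macrophages the unthinned share was 34.9% in control and 39.2% in LPS, the same order as after thinning.

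Cebpg, the dimer partner, was at 82.5 CPM (72.7 to 93.2) in control macrophages, against 17.8 to 36.0 CPM in the other clusters. In LPS the macrophages had 89.3 CPM (78.0 to 102), a ratio of 1.08 (0.900 to 1.30). The main fibroblasts had 27.2 CPM in control and 44.6 CPM in LPS, a ratio of 1.64 (1.55 to 1.72), and endothelial cluster 4 had 36.0 and 52.6 CPM, a ratio of 1.46 (1.28 to 1.67). Of the 9 clusters with enough UMIs, 8 had an interval wholly above 1 and none reached 2. Counted as UMIs per cell, 7 of the 9 ratios were above 1, and those of macrophages and cluster 3 were 0.834 and 0.957. The ratios outside macrophages lay between 1.37 in cluster 3 and 1.86 in cluster 8. In control, all neighbours in the order of Cebpg levels below macrophages had overlapping intervals. After thinning, 26.7% (21.6% to 32.3%) of control and 27.2% (22.2% to 32.8%) of LPS macrophages had a Cebpg UMI, compared with 8.53% and 11.9% of main fibroblasts.

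**Figure D4:**
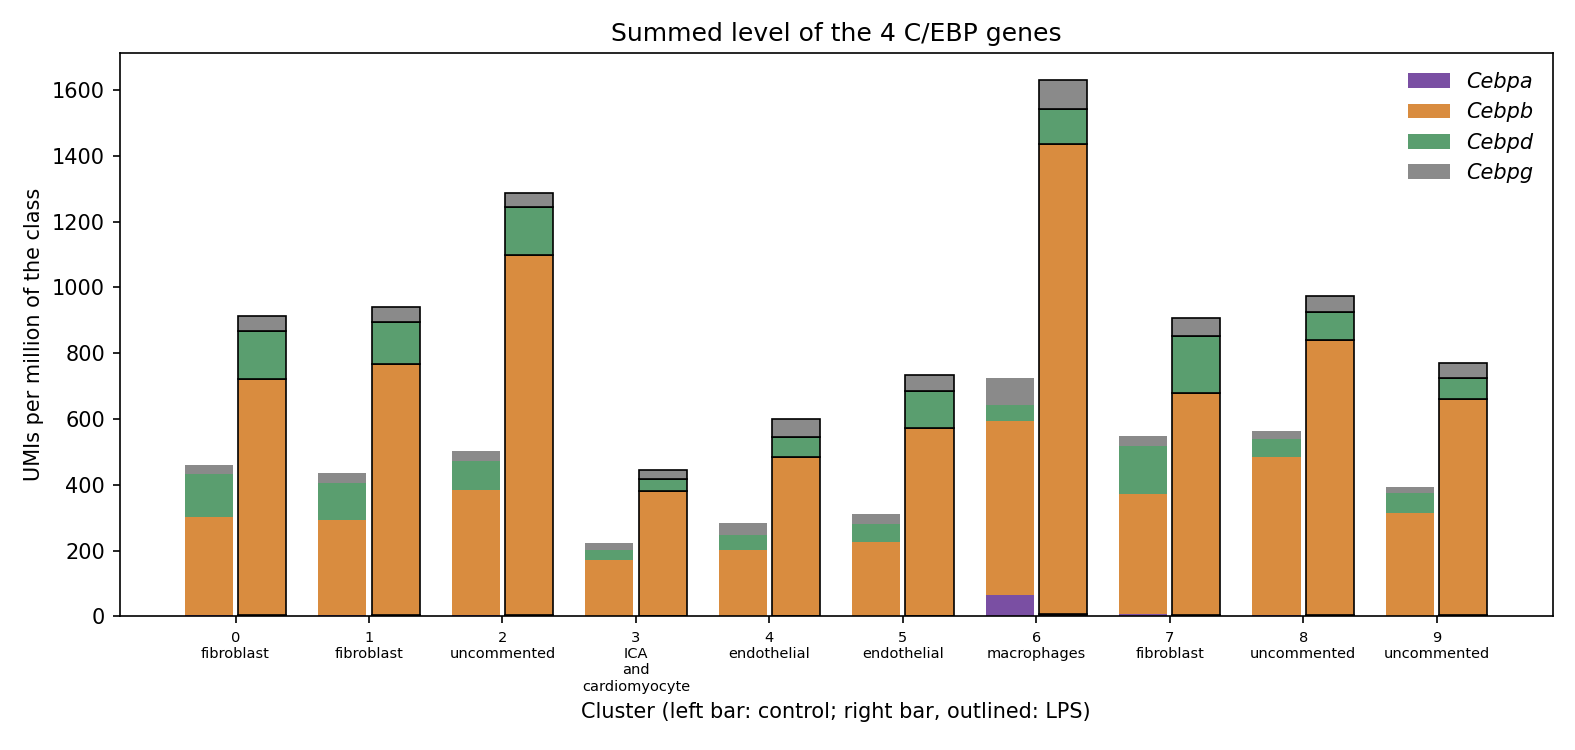
Summed level of the 4 C/EBP genes (vertical axis, UMIs per 1000000 of the class) in each cluster, with control on the left and LPS, outlined in black, on the right, split by gene. The macrophage bar is 725 CPM in control and 1631 CPM in LPS, and the Cebpa part seen at the foot of the control macrophage bar is hardly visible elsewhere.

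Taken as one pool, the 4 genes summed to 461 CPM in control and 912 CPM in LPS in the main fibroblasts, 222 and 445 CPM in cluster 3, and 725 and 1631 CPM in macrophages. Cebpe, read below with the zipper relatives, is not in this pool. A UMI of a 3′ library stands for 1 captured transcript end, so shares within the pool need no length correction, although capture may differ between genes. Cebpb made up 64.5% (64.0% to 64.9%) of the pool in control main fibroblasts and 78.4% (78.1% to 78.7%) in LPS, while the share of Cebpd went from 28.7% to 16.1%. In macrophages Cebpb went from 72.9% (71.0% to 74.7%) to 87.6% (86.6% to 88.6%). Cebpa gave 8.81% (7.68% to 10.1%) of the macrophage pool in control and 0.469% (0.282% to 0.731%) in LPS, close to its 0.605% in LPS main fibroblasts. The share of Cebpg in macrophages went from 11.4% to 5.48% although its level was nearly the same, as the pool had grown through Cebpb.

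Pairs that include Cebpb were found together in a cell about as often as their separate shares would give. Over the 3 such pairs and both libraries, the share with both genes divided by the product of their shares was 0.939 to 1.06 in thinned main fibroblasts and 0.980 to 1.09 in thinned macrophages. This quotient cannot exceed 1 divided by the Cebpb share, so values near 1 were largely set in advance where most cells had Cebpb. In LPS macrophages 97.2% had it, and all 8 cells with Cebpa did, which gave the highest possible value, 1.03. In LPS main fibroblasts 27.8% had both a Cebpb and a Cebpd UMI, against a product of 27.6%, and in control macrophages 13.5% had both Cebpa and Cebpb, against 12.4%. The 3 pairs without Cebpb, which have a wider limit and rested on fewer cells, ranged from 0.653 to 1.12 in main fibroblasts and from 0.679 to 2.27 in macrophages. In LPS macrophages 8.97% had both Cebpd and Cebpg, 26 of 290 cells, against a product of 6.01%, and the value of 2.27, for Cebpa and Cebpd, rested on 4 cells. At least 1 of the 4 genes had a UMI in 72.1% of control and 90.9% of LPS main fibroblasts and in 85.1% and 98.6% of macrophages. These are counts of cells within a library, and cells are not replicates of a condition.

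Cluster 3 was divided by Dbh, the gene of dopamine beta-hydroxylase, the enzyme that makes norepinephrine and that marks ICA cells. Of the other ICA markers in cluster 3, Ddc was at 49.6 and 56.9 CPM in control and LPS and Slc6a2 at 0.989 and 1.64 CPM. Th, the gene of tyrosine hydroxylase, was at 0 in both libraries. Any Dbh UMI of an unthinned cell counted, so the division depends on depth. Control cells with and without one had medians of 8200 and 7454.5 UMIs, and LPS cells 5379 and 5228.5. The 156 control and 121 LPS cells with a Dbh UMI had 181 CPM (159 to 204) and 336 CPM (295 to 381) of Cebpb, and the cells without one had 167 CPM (157 to 178) and 385 CPM (368 to 403). Cebpd was 36.2 and 27.6 CPM in the cells with Dbh and 28.3 and 38.5 CPM in those without, with intervals that overlapped in each library. Cebpg was 17.1 and 23.5 CPM in cells with a Dbh UMI, and Cebpa had 0 UMIs in control and 2 UMIs in LPS. For Cebpa in control, 3 UMIs would be 2.05 CPM, and the exact Poisson upper limit was 2.52 CPM. Fibroblast markers in cluster 3 as a whole summed to 33.0% of their cluster 0 level in control and 32.3% in LPS, beside 57.2% and 53.0% for Cebpb and 22.7% and 25.2% for Cebpd. In macrophages the same markers summed to 33.5% and 27.8% of the cluster 0 level, while Cebpb was at 178% and 200%. Cebpd was below its cluster 0 level there, at 50.1 and 105 CPM in macrophages against 132 and 147 CPM in cluster 0. The part of fibroblast RNA in the C/EBP values of these clusters was not tested.

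The related genes were read from 4 lists in the main fibroblasts and the macrophages. Their counts stand beside shares over all genes of 3.44% higher and 9.10% lower in cluster 0 and 4.82% higher and 12.3% lower in cluster 6. The list of zipper relatives also held Cebpz, which shares the family symbol but is not a zipper protein. Of the 10 measured genes of this list in cluster 0, 2 were at least 2-fold higher, 1 was lower and 7 were neither. Their median log2 ratio was 0.40 beside -0.13 over all genes. The higher genes were Batf, a partner of Jun proteins, at 0.608 and 5.36 CPM, and the stress factor Atf3, at 1.52 and 6.93 CPM, and the lower gene was the clock output factor Dbp, at 69.5 and 32.9 CPM. In macrophages 1 of 9 was higher, 1 lower and 7 neither, with a median of 0.44 beside -0.31 over all genes. Atf3 was again the higher gene, at 15.4 and 74.4 CPM. The lower gene was Cebpe, the family member of late granulocyte and macrophage differentiation, at 14.8 CPM in control and 3.22 CPM in LPS, a ratio of 0.218 (0.0888 to 0.466), and Dbp was at 93.8 and 53.1 CPM.

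The upstream and modifying genes, which hold the receptors and signal proteins that act on C/EBP factors, had list medians near 0. In cluster 0 none of 14 was 2-fold higher and 1 was lower, with a median log2 ratio of 0.02. The 3 with the largest differences were Trib2, whose product marks C/EBPα for degradation, at 7.26 and 3.54 CPM, the interleukin-6 receptor gene Il6r at 2.23 and 1.22 CPM, and Trib1, a relative of Trib2, at 8.54 and 5.92 CPM. In macrophages 1 of 6 was higher, 1 lower and 4 neither, with a median of 0.01. Il6r was the lower one, at 16.7 and 3.62 CPM, and Trib3, another Tribbles gene, the higher one, at 16.7 and 50.3 CPM, with Osm, the gene of the cytokine oncostatin M, next at 13.2 and 22.5 CPM.

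Inflammatory and acute-phase genes known as C/EBP targets were mostly higher. In cluster 0, 10 of 13 measured members were at least 2-fold higher and none lower, with a median log2 ratio of 2.80. The largest ratios were those of the granulocyte growth factor gene Csf3, from 0.287 to 35.1 CPM, Il1b, from 0.210 to 23.5 CPM, and Nos2, the inducible nitric oxide synthase, from 0.144 to 7.20 CPM. In macrophages 10 of 11 were higher and none lower, with a median of 5.09. Csf3 had 1 UMI in control and 2219 CPM in LPS, and Il6 had 1 UMI in control and 204 CPM in LPS, ratios of 6911 (1240 to 273032) and 635 (114 to 25140), while Il1b went from 38.2 to 7919 CPM. This list answers to many factors besides C/EBP, and its counts are a description. Summed macrophage markers were 25.8 and 12.5 CPM in cluster 0, against 4997 and 3323 CPM in macrophages. The part of macrophage RNA in the cluster 0 values of these genes, Il1b and Csf3 among them, was not tested.

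Myeloid and adipocyte targets of C/EBPα were lower or short of 2-fold, with 1 exception in cluster 0. In cluster 0, 1 of 8 was higher, 4 lower and 3 neither, with a median log2 ratio of -0.80 beside -0.13 over all genes. The list was led by Csf1r at 2.19 and 0.325 CPM, the lipid droplet gene Cidec at 0.210 and 1.34 CPM and the lysozyme gene Lyz2 at 2.62 and 0.827 CPM. All 3 were low there, and the summed macrophage markers of the same cluster, which share Csf1r with this list, were 25.8 CPM in control and 12.5 CPM in LPS. In macrophages 1 of 5 was lower and 4 neither, where 12.3% of all genes were lower. The list median was -0.52 beside -0.31 over all genes. Csf1r, the receptor for macrophage colony-stimulating factor, was at 237 CPM in control and 32.2 CPM in LPS, a ratio of 0.136 (0.107 to 0.171), close in size to that of Cebpa. Fabp4 and Lyz2 were at 94.7 and 59.1 CPM and at 581 and 405 CPM. Neutrophil markers in the same cluster summed to 23.1 and 33.0 CPM, with Mmp8 and Cxcr2 at 0 in both libraries.

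**Figure D5:**
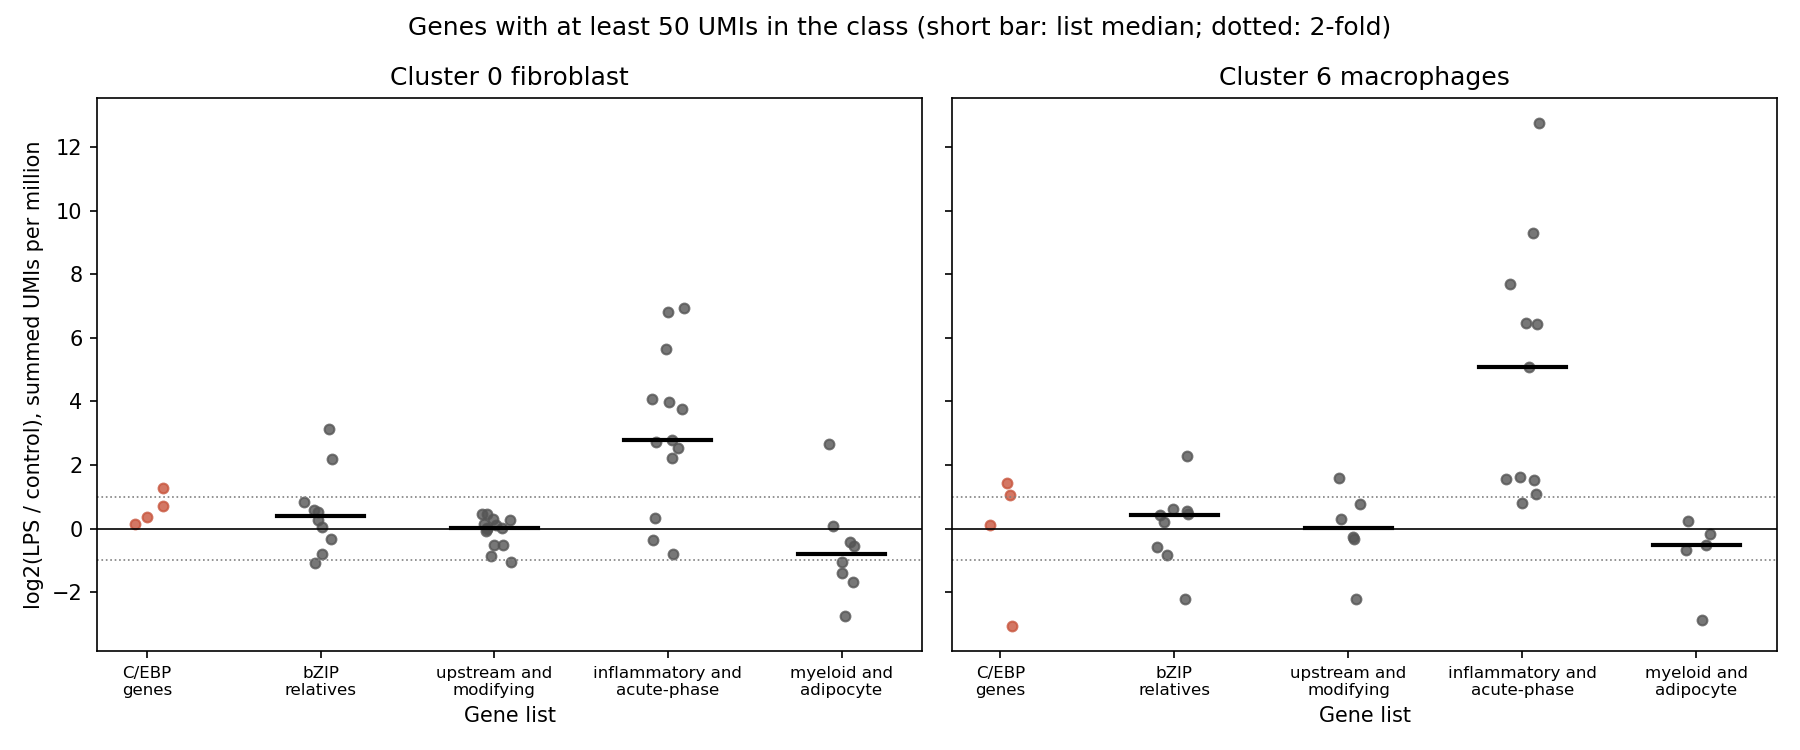
log2 ratio of LPS to control for the C/EBP genes (red) and the measured genes of 4 related lists (grey), in the main fibroblasts of cluster 0 (left) and the macrophages of cluster 6 (right), with list medians as short bars and 2-fold as dotted lines. The inflammatory and acute-phase list has medians of 2.80 and 5.09, and the lowest red point on the right is Cebpa.

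The genes whose pattern was most like that of each C/EBP gene were sought over the 20 pools of cluster and library, among 4698 genes with a mean of at least 20 CPM, by Pearson's r of log2(CPM + 1). The 20 pools share 2 libraries, so r is a description and carries no p. For Cebpb the most alike were Rab32 (0.92), Cxcl3 (0.91) and Cxcl1 (0.89), of which Cxcl3 and Cxcl1 are chemokine genes. None of these was among the 3 genes most like Cebpb over the 10 control pools alone. For Cebpa the most alike over the 20 pools were Slc48a1 (0.91), Trip6 (0.84) and Ap3s1 (0.83). Cebpa itself lay below the mean of 20 CPM. Its control macrophage pool was at 63.9 CPM and every other pool at 7.64 CPM or less. How far the r values of Cebpa, here and below, rest on that 1 pool was not tested. For Cebpd they included Sec61g (0.89) and Sec61b (0.85), and for Cebpg they were Tlr2 (0.88), Mafg (0.88) and Ccl7 (0.88). Among the 4 genes themselves, Cebpb and Cebpg had the highest r over the 20 pools (0.73) and Cebpa and Cebpd the lowest (0.08), an order seen in neither library alone. Over the 10 control pools r was highest for Cebpa and Cebpg (0.87), at 0.47 for Cebpb and Cebpg, and lowest for Cebpd and Cebpg (-0.01). Over the 10 LPS pools it was 0.72 for both Cebpa and Cebpb and Cebpb and Cebpg, and lowest for Cebpd and Cebpg (0.47).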

How the data were processed

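Counts were deposited by the authors as raw UMI counts per gene and cell barcode, without normalization, for 1 control and 1 LPS library of the 10x 3′ kind, with a table of the authors' clusters and cell types. The submitters' processing notes name Cell Ranger 2.2.0 and Seurat 2.3.4, and the genome build is not given in the sources used here. Only barcodes already called as cells were present, no further cell filter was applied and no doublet caller was run. Cells without a cluster (2 control, 8 LPS) were left out of the clusters.

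UMIs were summed per cluster and library and divided by the class total (CPM, per 1000000 UMIs) with numpy 2.4.6, pandas 2.3.3 and scipy 1.17.1 under Python 3.11.15, and drawn with matplotlib 3.10.9. Intervals at 95% were exact Poisson (levels), exact conditional binomial (ratios) and Clopper-Pearson (shares). The level that 3 UMIs would give was used as a floor. For thinned values, 3000 UMIs were sampled from each cell without replacement (seed 1). No test was made, since cells are not replicates. The ratio and its interval were checked on simulated Poisson counts with changes of known size, scaled by the known change of composition. That check covers counting error alone, and neither variation between libraries nor an unknown shift of composition.

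Named were the 4 members, in clusters 0 and 6 the 3 measured genes of each related list with the largest absolute log2 ratio, and the 3 genes most like each member by Pearson's r. 1 gene named by this rule is not reported here. Itgam of the myeloid list and Pecam1 of the endothelial markers had no unique row of their symbol in the gene list and were not read. Members, lists and comparisons were chosen with earlier results of these data known. Alternatives were other scalings, thinning depths, cell filters and count minimums.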

Additional observations from a re-analysis of the deposited data

Results flagged for a closer look

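Cebpa had ratios of LPS to control on opposite sides of 1 in different clusters, 1.28 (1.11 to 1.48) in the main fibroblasts of cluster 0 and 0.120 (0.0705 to 0.192) in the macrophages of cluster 6. The difference between these ratios was not tested, as each condition was 1 library. The cluster 0 ratio was 0.980 in UMIs per cell, while the cluster 6 ratio was between 0.0922 and 0.149 under its alternatives.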

How the results depend on the processing

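No paired analysis was possible because there was a single library of each kind. The ratios of the 4 genes in clusters 0, 3, 4 and 6 were recomputed under 7 other ways of counting and 2 chosen after seeing the data, which were leaving out shared barcodes and keeping only macrophages with a Cd68 UMI. Of 132 such values, 105 lay within the interval of the main ratio, 27 lay outside it, and no ratio past 2-fold changed direction. The 132 include Cebpa in clusters 3 and 4, which had too few UMIs for a ratio. Its intervals there were wide, 0.393 to 2.21 and 0.261 to 1.10. The filter on genes and mitochondrial UMIs removed no cell of clusters 0 and 6, so its values there could not differ. Counted as UMIs per cell, the ratios were 1.84, 1.55, 1.87 and 2.08 for Cebpb in clusters 0, 3, 4 and 6, so those of clusters 0, 3 and 4 fell short of 2, and over all 10 clusters the ratio reached 2 in 3 in place of 8. For Cebpd they were 0.851, 0.862, 1.04 and 1.62, for Cebpg 1.25, 0.957, 1.12 and 0.834, and for Cebpa in cluster 0 0.980. Scaled by the median ratio of all genes, they were 2.64, 2.58 and 3.35 for Cebpb in clusters 0, 4 and 6, 1.22 and 2.59 for Cebpd and 1.79 and 1.34 for Cebpg in clusters 0 and 6. After thinning to 3000 UMIs they were 2.35, 2.02 and 2.23 for Cebpb in clusters 0, 3 and 4, 1.52 and 0.181 for Cebpa in clusters 0 and 3, the latter from 1 UMI in LPS, and 1.42 for Cebpg in cluster 0. Without the 8% of cells with the most UMIs the ratio of Cebpd in cluster 6 was 1.81, short of 2 though within its interval. The mean of the cells' own CPM gave 2.37 for Cebpb in cluster 0. Cebpa in macrophages stayed under 0.5 in all 9 alternatives.

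The difference in the share of cells with a UMI, LPS minus control in percentage points, changed with the depth of thinning. Without thinning it was -0.157 for Cebpa and -6.47 for Cebpd in cluster 0, against 0.579 and 1.88 after thinning to 3000, which are reversals. It was also 6.88 for Cebpb and 6.23 for Cebpg in cluster 0, and -36.1 for Cebpa and 3.56 for Cebpb in cluster 6. At 1500 UMIs it was 0.106 for Cebpa in cluster 0 and -7.53 and 36.0 for Cebpa and Cebpb in cluster 6. In the lists, a minimum of 20 UMIs gave 2 lower zipper relatives and 1 higher upstream gene in cluster 0 and 2 lower upstream genes in cluster 6, where the shares of all genes higher and lower were 3.64% and 11.5% in cluster 0 and 4.73% and 16.2% in cluster 6. A minimum of 200, with shares of 3.31% and 5.81% and of 5.72% and 6.41%, gave 0 lower zipper relatives and 0 upstream genes in either direction in cluster 6, and 0 higher myeloid and adipocyte genes in cluster 0. With the 10 control pools alone, 1 of the 3 genes most like Cebpd was kept and 0 of those of Cebpa, Cebpb and Cebpg. The causes were not tested. Depth limits Cebpa outside macrophages, where 6 clusters gave too few UMIs for a ratio.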

Other observations

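In the ICA and cardiomyocyte cluster 3, 6 of 8 measured inflammatory and acute-phase genes were at least 2-fold higher in LPS, among them Csf3 at 0.141 and 19.5 CPM and Ptgs2, the inducible cyclooxygenase, at 1.27 and 26.5 CPM, whereas none of the 6 zipper relatives, 10 upstream genes and 2 myeloid or adipocyte genes reached 2-fold in either direction. Over all genes 1.70% were higher and 1.69% lower in this cluster, and 2.65% and 4.08% in endothelial cluster 4. In cluster 4, 9 of 11 inflammatory genes were higher and none lower, 1 of 8 zipper relatives was higher (Atf3, at 7.19 and 21.3 CPM), 1 of 12 upstream genes was higher and 2 were lower (Trib3 at 17.2 and 35.4 CPM, Trib2 at 9.80 and 3.80 CPM and Osmr at 3.60 and 1.64 CPM), and 1 of 4 myeloid and adipocyte genes was higher (Cidec, at 1.98 and 13.4 CPM). These genes were named after their values were seen. The control Csf3 value of cluster 3 lay below the level of 3 UMIs there, 0.424 CPM. Fibroblast markers summed to 3829 and 3462 CPM in cluster 3, against 11616 and 10722 CPM in cluster 0, and macrophage markers to 31.5 and 13.0 CPM. The part of RNA from other cells in the values of clusters 3 and 4 was not tested.

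The smallest cluster, 10, with 16 control and 26 LPS cells, had Cebpb at 243 CPM (170 to 339) in control and 521 CPM (415 to 645) in LPS, and Cebpd at 48.7 CPM (19.6 to 100.3) from 7 UMIs in control and 207 CPM (142 to 291) from 33 UMIs in LPS, the highest Cebpd level of any cluster in that library, with an interval that overlapped that of fibroblast cluster 7. Among cells without a cluster, the 8 LPS cells held 3 Cebpb UMIs and the 2 control cells held none.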
